A study of Danio rerio with 4 samples.

Results

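The ywha genes encode the 14-3-3 proteins, small acidic proteins that pair up and bind other proteins at phosphorylated serines and threonines. In vertebrate cells they hold Cdc25 phosphatases, the death-promoting protein Bad, Foxo transcription factors and Yap in the cytoplasm and regulate Raf kinases. In mammalian cells they also bind β-catenin phosphorylated by Akt and, with Chibby, carry β-catenin out of the nucleus. Zebrafish have more than 1 gene for several 14-3-3 isoforms, which mammals know as beta, gamma, epsilon, eta, theta and zeta.

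Members were the gene rows whose symbol starts with ywha in either case, which gave 11 of 32266 gene rows. Of these, 5 carried zebrafish symbols (ywhaqa, ywhaqb, ywhae2, ywhaz and ywhabl). The other 6 carried human-style symbols, namely 2 rows named YWHAB, 2 named YWHAG, 1 YWHAE and 1 YWHAH. The symbol table does not say which YWHAB or YWHAG row is which zebrafish paralogue, so they are given by Ensembl identifier. The members themselves were chosen by symbol, but the family was chosen by the measured difference of ywhaqb (ENSDARG00000023323), which stood among the few genes past the threshold in an earlier pass over these data. Its difference is therefore a description and not support for anything.

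The embryos were zebrafish of the AB strain, taken in mid-gastrulation at 9 hours after fertilization. One group of embryos was mosaic for β-catCA, a constitutively active β-catenin that turns on Wnt target genes in the cells that carry it, and the control group was mosaic for green fluorescent protein (GFP) alone. In both groups the cells without GFP were sorted, so every library holds the unmarked cells of a mosaic embryo, at unknown distance from the marked ones. There were 2 libraries, called lots, per group; whether the lots were separate clutches is not in the labels, and the p-values reflect only library-to-library spread, which may be technical.

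Each library was a CEL-Seq2 library of sorted cells in bulk. CEL-Seq2 counts 3′ ends by unique molecular identifier (UMI), so a level is molecules counted and is not divided by transcript length. Depth was 65098 gene UMIs in β-catCA lot 1 and 8403 in β-catCA lot 2, against 61304 and 59260 in control lots 1 and 2. Levels are given as UMIs per 1000000 gene UMIs after scaling by edgeR's trimmed mean of M values (TMM), here CPM. In β-catCA lot 2, 1 UMI stood for 124.5 CPM; in the other libraries it stood for 15.2 to 16.5 CPM. The upper limit behind a count of 0, taken as 3 UMIs, was 373.4 CPM in β-catCA lot 2 and 45.7 to 49.4 CPM elsewhere; such limits and all intervals on counts cover counting error only. Markers of the gastrula were present, with UMIs for 14 of 14 rows of ventral and epidermal ectoderm and 10 of 11 rows of neural ectoderm. β-catCA lot 2 also stood apart in its make-up: the row ENSDARG00000080337 took 19.0% of its gene UMIs and 5.17% to 6.22% of those of the other 3.

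ywhaqb is a gene for the theta isoform, a form first known from mammalian T cells. It had 69 UMIs in β-catCA lot 1, 11 in β-catCA lot 2, 29 in control lot 1 and 22 in control lot 2. On the CPM scale these were 1052, 1369, 466.9 and 362.3 in the same order. Both β-catCA libraries lay above both controls, and the groups did not overlap. The exact Poisson 95% intervals ran from 818.7 to 1332 CPM in β-catCA lot 1 and from 683.5 to 2450 CPM in β-catCA lot 2, the shallow library. They ran from 312.7 to 670.5 CPM in control lot 1 and from 227.0 to 548.5 CPM in control lot 2. The intervals of the β-catCA libraries thus began above the upper ends of both control intervals.

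The fitted change of ywhaqb, from edgeR's quasi-likelihood test over all tested genes, was a log2 change of 1.43 (SE 0.37), or 2.70-fold, with a Benjamini-Hochberg adjusted p of 0.038. That value is what brought the family up. It was 1 of 3 genes called higher, 0.28% of 1071 tested genes, beside 6 called lower, 0.56%, for 0.84% in all. Only 8 tested genes had a larger positive log2 change. The call rested on single libraries: the log2 change came to 1.32 when β-catCA lot 2 was dropped, still below the 0.05 threshold (edgeR adjusted p = 0.032), but it missed that threshold when any other library was left out. It was then 1.70 for β-catCA lot 1 (edgeR adjusted p = 0.18), 1.61 for control lot 1 (adjusted p = 0.21 by edgeR) and 1.26 for control lot 2 (edgeR adjusted p = 0.49). With all 4 libraries kept, ywhaqb also missed it with library totals in place of TMM (edgeR adjusted p = 0.079), with upper-quartile factors (0.10), without the filter (0.77) and in DESeq2 (0.995). The direction was the same in all these cases. In bulk RNA, more cells that express a gene and more RNA of that gene per cell cannot be told apart.

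**Figure D1:**
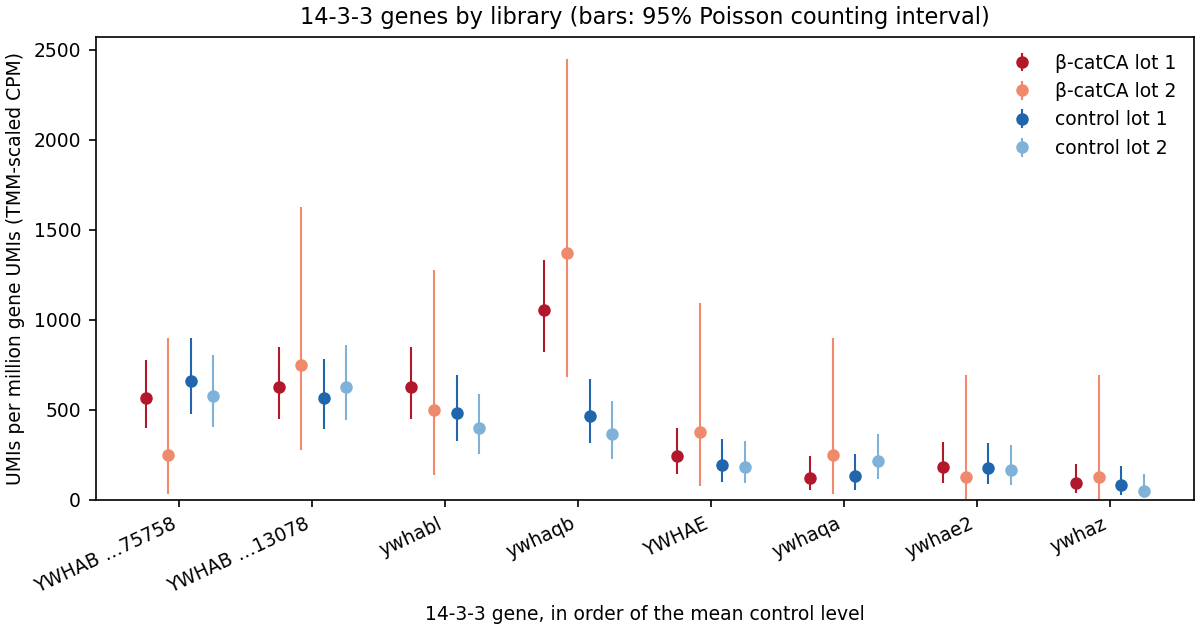
TMM-scaled CPM of the 8 ywha genes with at least 15 UMIs in all, 1 point per library, with exact 95% Poisson counting intervals; genes stand in order of their mean control level. ywhaqb is at 1052 and 1369 CPM in the β-catCA libraries and at 466.9 and 362.3 CPM in the controls, and it is the 1 gene here whose counting intervals in both β-catCA libraries lie above those of both controls.

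The theta paralogue ywhaqa (ENSDARG00000042539) did not separate the groups. Its UMIs numbered 8 and 2 in β-catCA lots 1 and 2 and 8 and 13 in control lots 1 and 2. These were 122.0 and 249.0 CPM in the β-catCA libraries and 128.8 and 214.1 CPM in the controls, so the groups overlapped. The fitted log2 change was -0.31 (SE 0.65), with 95% limits of -1.62 and 1.01 (edgeR adjusted p = 0.93). It turned positive without β-catCA lot 1, at 0.51, and without control lot 2, at 0.10.

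Within the theta pair, ywhaqb held 78.4% of the UMIs in control lot 1 and 62.9% in control lot 2. It held 89.6% in β-catCA lot 1 and 84.6% in β-catCA lot 2, where the pair had 13 UMIs. The exact binomial 95% intervals were 61.8% to 90.2% and 44.9% to 78.5% in the controls and 80.6% to 95.4% and 54.6% to 98.1% in the β-catCA libraries, so the interval of β-catCA lot 1 overlapped that of control lot 1, and that of β-catCA lot 2 overlapped both. ywhaqb was the more abundant theta gene in all 4 libraries.

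The 2 beta rows were the most abundant 14-3-3 genes of the control cells. Beta 14-3-3 is known in mammalian cells as a partner of Raf kinases. YWHAB ENSDARG00000075758 had 41 and 35 UMIs in control lots 1 and 2, or 660.1 and 576.3 CPM. In the β-catCA libraries it had 37 and 2 UMIs, or 564.2 and 249.0 CPM, both below both controls, the second below what a count of 0 allows in that library. The fitted log2 change was -0.28 (SE 0.39) with a 95% interval from -1.07 to 0.52 and did not pass (edgeR adjusted p = 0.89); dropping β-catCA lot 1 made it -1.32, and dropping β-catCA lot 2 made it -0.15.

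YWHAB ENSDARG00000013078 had 35 and 38 UMIs in the controls, or 563.5 and 625.7 CPM, and 41 and 6 UMIs in the β-catCA libraries, or 625.2 and 746.8 CPM. The groups overlapped, and the fitted log2 change was 0.12 (SE 0.38) with 95% limits of -0.64 and 0.89 (edgeR adjusted p = 0.95); it was -0.079 in the fit without a low-count filter. The 2 beta rows together held 1224 and 1202 CPM in control lots 1 and 2 and 1189 and 996 CPM in β-catCA lots 1 and 2. ENSDARG00000075758 supplied 53.9% and 47.9% of that pair in control lots 1 and 2 and 47.4% in β-catCA lot 1. It supplied 25% of it in β-catCA lot 2, from 2 of 8 UMIs, with an exact binomial 95% interval from 3.19% to 65.1%. Apart from that sparse library, the 2 beta rows had about equal counts. The exact binomial 95% intervals of this part were 42.1% to 65.5% in control lot 1 and 36.1% to 60.0% in control lot 2. In β-catCA lot 1 the interval was 36.0% to 59.1%, so moderate differences remain possible.

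The beta-like gene ywhabl (ENSDARG00000040287) had 30 and 24 UMIs in the controls, 483.0 and 395.2 CPM, and 41 and 4 UMIs in the β-catCA libraries, 625.2 and 497.9 CPM. Both β-catCA libraries lay above both controls, by little in the case of lot 2. The fitted log2 change was 0.45 (SE 0.40) with a 95% interval from -0.34 to 1.25 and did not pass (edgeR adjusted p = 0.77); with β-catCA lot 1 left out it was 0.16, and in DESeq2 it was 0.21.

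The epsilon genes encode the isoform that readily joins other 14-3-3 isoforms in mixed dimers and that mice need for neuronal migration. YWHAE (ENSDARG00000006399) was at 193.2 and 181.1 CPM in control lots 1 and 2, from 12 and 11 UMIs. It was at 244.0 and 373.4 CPM in the β-catCA libraries, from 16 and 3 UMIs, above both controls, but the 3 UMIs are no more than a count of 0 allows. The fitted log2 change was 0.48 (SE 0.53), with 95% limits of -0.59 and 1.55 (edgeR adjusted p = 0.85), and it was 0.97 with β-catCA lot 1 left out.

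Its paralogue ywhae2 (ENSDARG00000017014) had 11 and 10 UMIs in the controls, 177.1 and 164.7 CPM, and 12 and 1 UMIs in the β-catCA libraries, 183.0 and 124.5 CPM. The groups overlapped, and the log2 change was 0.037 (SE 0.58), with 95% limits of -1.13 and 1.21 (edgeR adjusted p = 0.99); its sign turned under several settings. YWHAE held 52.2% and 52.4% of the epsilon UMIs in control lots 1 and 2, 57.1% in β-catCA lot 1 and 75% (3 of 4 UMIs) in β-catCA lot 2. As in the beta pair, the 2 epsilon genes had similar counts in the 3 deeper libraries. The exact binomial 95% intervals of the YWHAE part were 30.6% to 73.2% and 29.8% to 74.3% in control lots 1 and 2. In β-catCA lot 1 the interval was 37.2% to 75.5%, so larger differences than in the beta pair remain possible.

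The remaining 4 rows were too sparse for the low-count filter. ywhaz (ENSDARG00000032575) encodes the zeta isoform, the one best known for binding β-catenin in human cells. Its UMIs numbered 6 and 1 in the β-catCA libraries and 5 and 3 in the controls, with a log2 change of 0.39 (SE 0.90) and a 95% interval from -1.38 to 2.15 in the fit without the filter (edgeR adjusted p = 0.92). A difference in ywhaz was not detectable at this depth. The eta gene YWHAH (ENSDARG00000005560) had 1 UMI in β-catCA lot 1 and 2 in control lot 1. Of the gamma genes, which are brain-rich isoforms in mammals, YWHAG ENSDARG00000067626 had 1 UMI, in β-catCA lot 1, and YWHAG ENSDARG00000071658 had 0 in all 4 libraries. These 3 rows were under what a count of 0 allows in each library, and no fold change is given for them.

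By mean level in the controls the members fell into tiers. The beta rows came first, with 618.2 ± 59.2 CPM for ENSDARG00000075758 and 594.6 ± 44.0 CPM for ENSDARG00000013078 (SD, n = 2 each), and these 2 overlapped. ywhabl at 439.1 ± 62.1 CPM and ywhaqb at 414.6 ± 74.0 CPM (SD, n = 2 each) came next, overlapped each other and lay below the beta rows in both control lots. YWHAE at 187.2 ± 8.54, ywhaqa at 171.4 ± 60.3 and ywhae2 at 170.9 ± 8.80 CPM (SD, n = 2 each) formed the next tier, in which neighbours did not differ beyond their spread. ywhaz was below that tier at 64.9 ± 22.0 CPM (SD, n = 2). Neighbouring tiers overlapped within counting error. In control lot 1 the Poisson 95% interval of ywhabl, 325.9 to 689.5 CPM, overlapped that of ENSDARG00000013078, 392.5 to 783.7 CPM. That of ywhaz, 26.1 to 187.9 CPM, overlapped that of ywhaqa, 55.6 to 253.8 CPM. Among the 8640 genes with a UMI, the top beta row was above 97.2% in mean control level, ywhaqb above 95.3% and ywhaz above 75.2%.

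In the β-catCA libraries the order differed at the top. ywhaqb led with 1211 ± 224 CPM (SD, n = 2) and was the most abundant member in both lots. The beta row ENSDARG00000013078 followed with 686.0 ± 86.0 CPM, ywhabl with 561.6 ± 90.0 CPM and the beta row ENSDARG00000075758 with 406.6 ± 222.9 CPM (SD, n = 2 each). The last value averages 37 UMIs in lot 1 with 2 in lot 2, and its spread takes in the level of ywhabl. ENSDARG00000013078 and ywhabl had 41 UMIs each in lot 1, so their order rests on 6 against 4 UMIs in lot 2.

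The make-up of the family shifted accordingly. The 11 rows together held 173 and 156 UMIs in control lots 1 and 2 and 232 and 30 in β-catCA lots 1 and 2. ywhaqb supplied 16.8% of them in control lot 1 (exact binomial 95% interval 11.5% to 23.2%) and 14.1% in control lot 2 (9.05% to 20.6%). It supplied 29.7% in β-catCA lot 1 (23.9% to 36.1%) and 36.7% in β-catCA lot 2 (19.9% to 56.1%). The mean share was 33.2% ± 4.90 against 15.4% ± 1.88 (SD, n = 2 each), a difference of 17.8 percentage points. That difference was 21.2 points with β-catCA lot 1 dropped, 14.3 with lot 2 dropped and 15.03 with UMIs pooled over the lots of a group. No exact test on 2 libraries per group can fall below a two-sided p of 0.33, and ywhaqb chose the family, so the share carries no test.

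**Figure D2:**
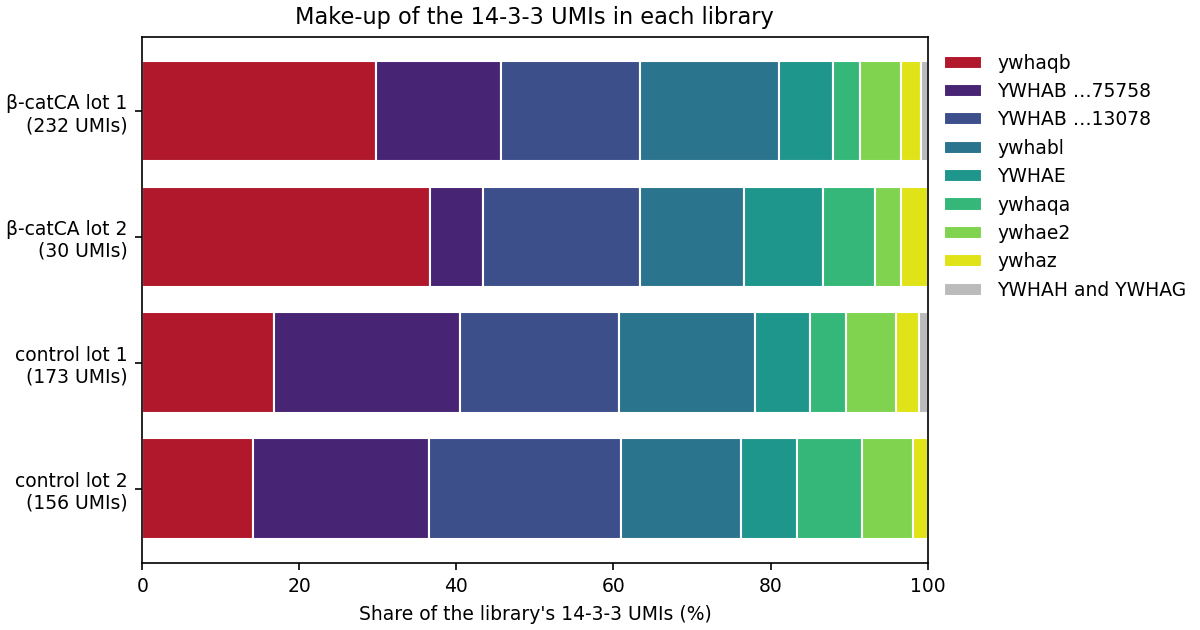
Share of each library's 14-3-3 UMIs held by each ywha gene, in percent, 1 bar per library, with the number of UMIs behind it. ywhaqb holds 29.7% and 36.7% in the β-catCA libraries and 16.8% and 14.1% in the controls; the lot 2 bar of the β-catCA mosaics rests on 30 UMIs.

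Summed over all 11 rows, the family stood at 2785 and 2569 CPM in control lots 1 and 2 and at 3538 and 3734 CPM in β-catCA lots 1 and 2. The groups did not overlap, with means of 2677 ± 153 and 3636 ± 139 CPM (SD, n = 2 each). Fitted by edgeR as a row beside the genes, the sum had a log2 change of 0.43 (SE 0.23), with a 95% interval from -0.043 to 0.90. No p is given, since the members were chosen with results known.

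The other 10 rows without ywhaqb summed to 2318 and 2206 CPM in the controls and 2486 and 2365 CPM in the β-catCA libraries. Both β-catCA libraries were above both controls on this scale too, by less than in the full sum. β-catCA lot 2 held 19 of these UMIs, where 1 UMI stood for 124.5 CPM. As a plain share of gene UMIs it was at 0.22611%, below control lots 1 and 2 at 0.234895% and 0.226122%, so the groups overlapped. The CPM means were 2262 ± 79.2 in the controls and 2425 ± 85.3 in the β-catCA libraries (SD, n = 2 each). The fitted log2 change was 0.11 (SE 0.25), with a 95% interval from -0.39 to 0.62. The sum mostly follows the abundant rows and does not bound the change of a sparse member. The sign of this small value turned in DESeq2, at -0.11, and without the low-count filter, at -0.16. Those settings also moved the median log2 change of all genes tested in the main comparison, by -0.22 and -0.19. Relative to that median the sum without ywhaqb ran from 0.061 to 0.29 over the settings, and ywhaqb itself from 1.31 to 1.94. All settings reuse the same libraries, and the SE of this sum was 0.25 in the main fit. Its sign is therefore not a result.

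Of the 6 tested members other than ywhaqb, 0 passed the threshold and 0 had an unadjusted p under 0.05 (edgeR; 0 passed in DESeq2 as well), where 0.84% and 10.5% of all tested genes did. Their fitted log2 changes ran from -0.31 to 0.48, with 4 positive and 2 negative and a median of 0.081, beside -0.029 over all tested genes; 2 of the 6 were positive in DESeq2 and without the filter. In 2 of the 6 both β-catCA libraries were above both controls, and in 1 of the 6 both were below, where 17.2% and 23.6% of all tested genes had these patterns. To pass the filter a row had to reach a set level in at least 2 libraries, whichever their group. In the shallow β-catCA lot 2 as few as 2 UMIs reached it, as for ywhaqa. These counts therefore describe the 7 tested rows and not all 11.

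**Figure D3:**
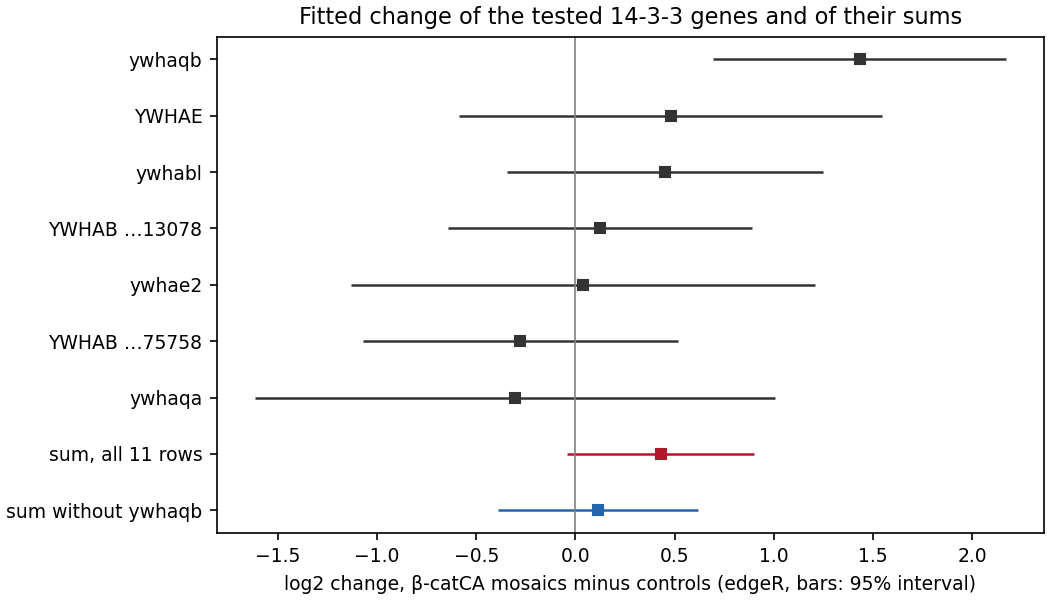
Fitted log2 change (β-catCA mosaics minus controls, edgeR) with its 95% interval for the 7 tested ywha genes, and for the sums over all 11 rows and over the 10 rows other than ywhaqb. The interval of ywhaqb runs from 0.69 to 2.17; those of the other genes and of both sums include 0.

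The genes with the profile nearest to ywhaqb over the 4 libraries were ranked by the root-mean-square distance between log2 CPM values centred on each gene's mean. The nearest of 1070 other tested genes was the keratin gene krt8 (ENSDARG00000058358), at a distance of 0.030 log2 units, where the median gene was at 0.87. krt8 had 79 and 13 UMIs in β-catCA lots 1 and 2 and 35 and 27 in control lots 1 and 2. It was itself among the genes called higher (edgeR adjusted p = 0.038). Like that of ywhaqb, the krt8 call was lost with library totals, with upper-quartile factors, without the filter (edgeR adjusted p = 0.77) and in DESeq2. For each krt8 UMI there were 0.87 and 0.85 ywhaqb UMIs in the β-catCA libraries and 0.83 and 0.81 in the controls. Since krt8 was picked for the nearest profile, a near-constant ratio follows from the ranking. The next were HDAC8 at 0.13, a histone deacetylase gene, CAMLG at 0.13, which acts in inserting tail-anchored membrane proteins, the cell cycle repressor E2F8 at 0.17 and the nuclear pore gene nup153 at 0.17. These 4 had 2 or 3 UMIs in β-catCA lot 2. They passed the filter only through the β-catCA libraries, where they were high, so a profile like that of ywhaqb was favoured in advance. With 4 libraries that share their scaling, 36 of the 1070 genes had a Pearson r above 0.95 with ywhaqb, so the ranking is a description. The other tested 14-3-3 genes stood between rank 75 (YWHAE) and rank 833 (YWHAB ENSDARG00000075758).

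krt8 is a marker of the enveloping layer, the outer epithelium of the embryo, and the summed level of that layer's markers was also higher in both β-catCA libraries. Of 19 enveloping layer rows 11 had a UMI, and their sum was 2165 and 2987 CPM in β-catCA lots 1 and 2 against 1288 and 955.0 CPM in control lots 1 and 2, with no overlap. krt8 held 43.8% to 55.6% of these UMIs. Without it the sum was 960.7 and 1369 CPM against 724.5 and 510.4 CPM, from 11 UMIs in β-catCA lot 2. Of those 11 UMIs, 4 were of krt18a.1 and 4 of ANXA1. ANXA1 was at 76.2 and 497.9 CPM in β-catCA lots 1 and 2 against 32.2 and 32.9 CPM in the controls. Of the layer's other keratins, krt18a.1 was at 518.5 and 497.9 CPM against 305.9 and 296.4 CPM, a difference that did not pass (edgeR adjusted p = 0.54) and rests on 4 UMIs in β-catCA lot 2. krt4 did not separate the groups, since control lot 1 had the most UMIs of it (10, against 7, 1 and 2 in β-catCA lot 1, β-catCA lot 2 and control lot 2), and cyt1 had 5 UMIs in all. The sparse markers krt5, cyt1l, epcam and klf17 had no UMI in β-catCA lot 2. In β-catCA lot 1 krt5 and klf17, at 76.2 CPM from 5 UMIs each, lay above both controls by little. In control lots 1 and 2 krt5 had 4 and 2 UMIs and klf17 had 4 and 4. The epcam level in β-catCA lot 1, 45.7 CPM, lay between the controls. In the same library cyt1l was at 15.2 CPM from 1 UMI, below control lots 1 and 2 with 1 and 2 UMIs. The markers krt92 and cldne had 1 UMI each, in β-catCA lot 1. Listed markers at 0 in all libraries were agr1, anxa1b, anxa1c, cldnf, grhl3, krt1-c5, krt17 and tmprss4a. The part of the enveloping layer in the ywhaqb difference was not tested.

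**Figure D4:**
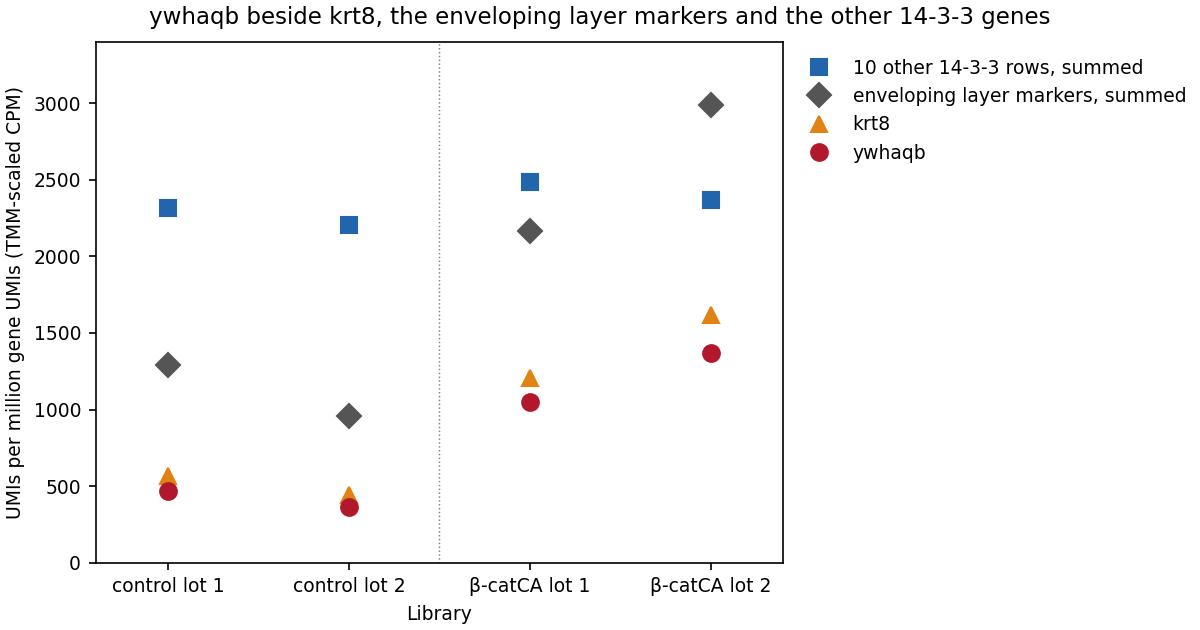
TMM-scaled CPM in each library of ywhaqb, the keratin gene krt8, the summed enveloping layer markers and the summed 10 other 14-3-3 rows. ywhaqb and krt8 run side by side, 466.9 and 563.5 CPM in control lot 1 and 1369 and 1618 CPM in β-catCA lot 2, while the other 14-3-3 rows stay between 2206 and 2486 CPM.

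Summed markers of other cells also separated the groups in several lists, though none of their tested genes passed the threshold. Among single tested genes, 17.2% had both β-catCA libraries above both controls and 23.6% had both below, so such a separation is common here. Prechordal plate and hatching gland markers summed to 2303 and 2241 CPM in β-catCA lots 1 and 2 and 1819 and 938.6 CPM in control lots 1 and 2. Ventral and epidermal ectoderm markers summed to 1098 and 871.3 CPM against 1626 and 1680 CPM. Neural ectoderm (1906 and 1494 against 2479 and 1927 CPM), notochord and axial mesoderm (1693 and 1743 against 1900 and 1992 CPM) and paraxial and posterior mesoderm (4178 and 2490 against 4202 and 5006 CPM) were also lower in both β-catCA libraries. The neural, notochord and paraxial gaps were narrow. In β-catCA lot 2, where 1 UMI stood for 124.5 CPM, the prechordal sum rested on 18 UMIs and the ventral sum on 7. The neural, notochord and paraxial sums rested there on 12, 14 and 20 UMIs. Of the 3 tested notochord genes, 2 had a positive change and 1 a negative one. For the paraxial list, β-catCA lot 1 had 274 UMIs and control lot 1 had 261. Endoderm markers overlapped, at 625.2 and 746.8 against 933.8 and 708.0 CPM. Primordial germ cell markers summed to 76.2, 16.1 and 65.9 CPM in β-catCA lot 1 and control lots 1 and 2 and to 0 UMIs in β-catCA lot 2, with ddx4 and piwil1 at 0 in all libraries. In the yolk syncytial layer list apoeb made up all but 1 of 370 UMIs, at a sum of 1525 and 1369 against 2109 and 2108 CPM, and the defining gene mxtx2 was at 0. The part of these cells in the ywhaqb difference was not tested.

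Genes of the proteins that 14-3-3 dimers bind, and of the enzymes that write and erase their binding sites, were mostly too sparse to test. Of 154 listed names 146 matched 149 rows, 97 rows had a UMI and 15 were tested. None of the 15 passed the threshold (edgeR; 1 had an unadjusted p under 0.05, and 0 passed in DESeq2), where 0.84% of all tested genes did. Their fitted changes were positive in 14 and negative in 1, with a median log2 change of 0.18 beside -0.029 over all tested genes. The count of positive changes was 12 to 14 of 15 under other scalings in edgeR and 10 to 12 of 15 with single libraries left out. It was 7 of 15 in the DESeq2 fit and 8 of 15 without the filter.

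Among cell division partners 2 of 13 rows with a UMI were tested. The inhibitory kinase gene WEE1, which restrains mitotic entry, was at 259.2 and 497.9 CPM in the β-catCA lots and 225.4 and 82.3 CPM in the controls. These levels came from 17 and 4 UMIs in β-catCA lots 1 and 2 and 14 and 5 UMIs in control lots 1 and 2. The fit gave WEE1 a change of 0.91 on the log2 scale (SE 0.55, edgeR adjusted p = 0.59). Among partners in growth and survival signalling 0 of 13 rows with a UMI were tested, and the 32 listed names held 79 UMIs in all. Of these names 17 were at 0 in all libraries, among them bada and rptor, the latter for the TOR complex subunit Raptor. bada is a gene for the death-promoting protein Bad, and its listed paralogue badb was not at 0.

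Of the Hippo, polarity and cytoskeleton partners 2 of 22 rows with a UMI were tested. YAP1, whose product is the growth-promoting coactivator that 14-3-3 keeps in the cytoplasm, was at 1860 and 1867 CPM in the β-catCA lots and 1272 and 1367 CPM in the control lots. The groups did not overlap, but the log2 change of 0.50 (SE 0.28) did not pass (edgeR adjusted p = 0.55). The β-catCA lot 2 value rests on 15 UMIs. The actin-severing gene CFL1, whose product and whose phosphatase are tied to 14-3-3, stood 0.64 higher on the log2 scale (SE 0.39) without passing (adjusted p = 0.60 by edgeR). It had 4 UMIs in β-catCA lot 2.

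Of the Wnt partners 4 of 15 rows with a UMI were tested, and their changes were within their errors of 0. CTNNB1, the β-catenin gene, was at 2104 and 1618 CPM in the β-catCA lots and 1932 and 1696 CPM in the control lots. The casein kinase gene CSNK1A1, whose product primes β-catenin for destruction, had a log2 change of 0.38 (SE 0.43), TCF7L1, a repressive Wnt transcription factor, of 0.21 (SE 0.47), and DVL3, a transducer of the Wnt receptor, of 0.010 (SE 0.55). The kinases that write binding sites had 2 tested genes, the S6 kinase gene rps6kb1b with a change of 0.27 (SE 0.45) and akt2 with 0.18 (SE 0.53).

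Of the PP1 and PP2A phosphatases, which can remove the phosphate that 14-3-3 reads, 5 of 12 rows with a UMI were tested. The catalytic subunit gene PPP1CB had 17 and 13 UMIs in control lots 1 and 2 but 4 and 0 in β-catCA lots 1 and 2. Its log2 change of -2.13 (SE 0.73) missed the threshold (edgeR adjusted p = 0.20). PPP1CB passed the filter only through the controls, where it was high, so a negative change was favoured in advance. The count of 0 in lot 2 allows up to 373.4 CPM, above the control levels of 273.7 and 214.1 CPM, so the difference rests on lot 1 at 61.0 CPM. The PP2A catalytic genes PPP2CA and ppp2cb had changes of 0.10 (SE 0.36) and 0.063 (SE 0.31), and the scaffold gene PPP2R1B of 0.46 (SE 0.62). In turn, PPP2R1B passed the filter only through the β-catCA libraries, which favours a positive change.

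**Figure D5:**
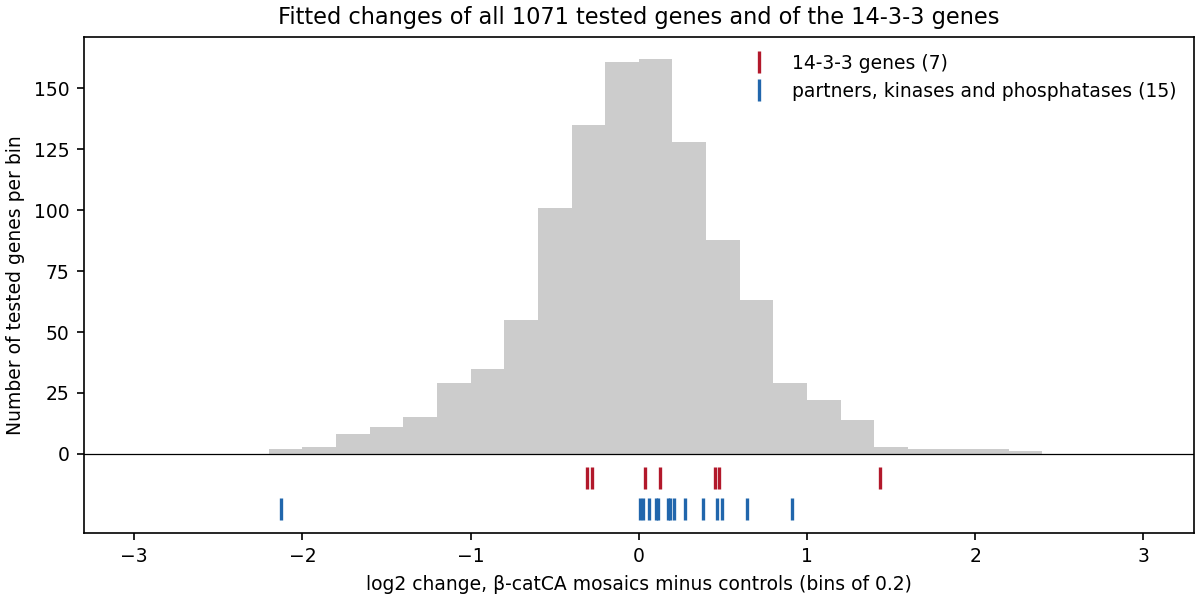
Histogram of the fitted log2 change (β-catCA mosaics minus controls) of all 1071 tested genes, with a tick for each of the 7 tested ywha genes and, below, for each of the 15 tested partner, kinase and phosphatase genes. ywhaqb stands at 1.43, and the other 14-3-3 genes lie between -0.31 and 0.48. PPP1CB, which passed the filter only through the controls, is the partner tick at -2.13.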

How the data were processed

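The table deposited by the authors holds raw UMI counts, in whole numbers, for each Ensembl gene in each library, per the file headers and values. Bowtie2 2.3.1, HTSeq 0.6.1 and the build GRCz10 are named in the submitters' processing notes; the sources used here give no annotation release, UMI length or strand setting. Rows that are no genes held 52.4% to 58.3% of all counts per library and stayed out of library sizes. Symbols came from a table of Ensembl identifiers. RefSeq (GRCz12tu) lists ywhaz as an older name of ywhaqb, so rows were read by identifier; there, of the ywha genes, 1 (ywhabb) overlaps another gene, grk5l. Reads of near-identical copies may be split or lost. No sequence table was used here, so no sequence is shown.

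Counts were tested in R 4.3.3 with edgeR 4.0.16: TMM factors, filterByExpr with a minimum count of 10, which kept 1071 of 8640 detected genes and 77.6% of gene UMIs, and the robust quasi-likelihood test with Benjamini-Hochberg adjustment over all tested genes at 0.05. Intervals are 95%. DESeq2 1.42.0, other scalings and filters, thinning, a block on the lot number and leaving out each library were alternatives. The procedure was tested on simulated data. Libraries of a group differed by more than counting error. Chi-square divided by its degrees of freedom was 2.39 for the β-catCA lots and 1.75 for the control lots, over genes with at least 10 UMIs in both together. ENSDARG00000080337, whose share differed between the β-catCA lots, was among these genes. The value cannot tell technical from biological spread, since both can exceed counting error.

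Members and lists were chosen with earlier results of these data known. Named genes were all members, up to 4 tested genes with the smallest p per partner list, the 5 genes nearest to ywhaqb (log2 CPM, prior count 2) and the enveloping layer keratins krt4, krt8, krt18a.1 and cyt1. A result that this rule names is not reported here. A listed name with no exact symbol was matched to the human-style symbol without its paralogue letter.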

Additional observations from a re-analysis of the deposited data

Results flagged for a closer look

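Outside the gene counts, unaligned tags took up 35.8% of everything counted for β-catCA lot 2, above control lots 1 and 2 at 21.1% and 22.9% and β-catCA lot 1 at 19.9%. This is the library in which ywhaqb rests on 11 UMIs; its log2 change without that library was 1.32.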

How the results depend on the processing

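ywhaqb kept its direction under all 13 alternatives, with log2 changes from 1.21 to 1.70, and passed the threshold in 3 of them (edgeR or DESeq2 adjusted p from 0.024 to 0.995). Calls over all genes, 9 as reported, numbered 2 with library totals, with at least 10 UMIs in every library of a group, with a replicate block and thinned to the smallest library, 1 with DESeq2 and with upper-quartile factors, and 0 with no filter on low counts (where 220 genes had an unadjusted p below 0.05), and in all 7 of these cases 0 members were called. Without single libraries there were 1 to 15 calls and 0 to 1 called members. Partner genes had 0 calls throughout. The family sum's log2 change was 0.20 with DESeq2, 0.14 without the filter, 0.55 with at least 10 UMIs in every library of a group, 0.64 thinned, 0.52 with upper-quartile factors and 0.36 to 0.47 without single libraries. Without ywhaqb it was -0.11, -0.16, 0.23, 0.24 and 0.20 in the same order, and 0.045 to 0.13 without single libraries. The cause of these shifts was not tested. Member values that turned sign were YWHAB ENSDARG00000013078 (-0.052 with DESeq2, -0.079 without the filter), ywhae2 (-0.23 with DESeq2, -0.12 without the filter, -0.029 with the replicate block, -0.47 to 0.083 over the libraries left out, negative for β-catCA lot 1 and control lot 2) and ywhaqa (0.013 with the block, -0.65 to 0.51 over the libraries left out, positive for the same lots). Whether same-numbered lots of the groups share a clutch or batch is not in the labels. Deviations of same-numbered lots had a correlation of -0.0061 across genes. That value cannot decide it, since β-catCA lot 2 is shallow and its deviations carry much counting error. Upper-quartile factors and leaving ENSDARG00000080337 out of library sizes were added after seeing the data; the latter gave 9 calls. Depth of β-catCA lot 2 limits every member value in it, at 0 to 11 UMIs.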
